A study of Mus musculus with 6 samples.

Results

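The Notch receptors, their ligands and Rbpj were represented by 21 probe sets of 10 genes, out of 45037 probe sets tested and 18193 genes named by 1 symbol. They were all the probe sets that the platform annotation assigns to exactly 1 gene symbol among Notch1, Notch2, Notch3, Notch4, Jag1, Jag2, Dll1, Dll3, Dll4 and Rbpj. RNA came from mouse ocular lenses at embryonic day 19.5, just before birth, on a mixed C57BL/6 & FVB/N background. The wild type group held 3 littermate controls whose lenses kept Notch2, and the Notch2 mutant group held 3 embryos with a conditional, lens-specific loss of Notch2. Each array carried the pooled lens pair of 1 embryo, according to the design text, so the 6 arrays stood for 6 embryos. The Cre driver, the floxed exons and whether the controls carried either allele are not given in the sources used here.

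Notch signalling passes between touching cells. A Delta-like or Jagged ligand on one cell binds a Notch receptor on its neighbour, the receptor is cut, and its intracellular part enters the nucleus, where it joins the DNA-binding protein Rbpj and turns Rbpj from a repressor into an activator. In the lens, Notch2 is the receptor of the epithelium and Jag1 the ligand of the fibre cells, and the pathway is known for keeping epithelial cells dividing and for fibre differentiation. In the retina, Delta-like ligands are made by newly formed neurons, downstream of proneural factors such as Neurog2.

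The values are log2 numbers, and for every probe set the middle of its 6 arrays was set to 0, so a value is a difference from the middle of the arrays and not an expression level. The number of arrays limits the precision, and fewer cells of a type and less RNA per cell cannot be told apart in whole lenses. Lens markers could not be checked as levels for the same reason. As differences, Dnase2b and Maf of the 14 measured fibre markers and Cdh1 and Pdgfra of the 11 measured epithelial markers were lower in mutants (adjusted p = 0.00219, 0.0385, 0.0157 and 0.0419, limma). Other Maf probe sets lay between -1.01 and -0.34 and other Pdgfra probe sets at -0.97 and -0.68, none past the threshold. The median difference was -0.52 over 25 fibre probe sets, of which 3 were above 0, and -0.17 over 35 epithelial probe sets, of which 15 were above 0. At an unadjusted p under 0.05 the epithelial list held 14 probe sets lower and 4 higher. Array medians lay between -0.02 and 0.02, with standard deviations from 0.223 to 0.384. The arrays differed in their hybridization controls, transcripts of the array maker that are added to every hybridization in fixed amounts. The mean of 18 such probe sets was -0.99 in wild type 1, -1.50 in wild type 2 and -1.48 in mutant 1. It was 0.99 in wild type 3, 1.48 in mutant 2 and 1.08 in mutant 3. These low and high arrays cut across the genotypes, and values within each kind are given below for several members.

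No member passed an adjusted p of 0.05 in limma, where 0.469% of all probe sets did, 0.293% as higher and 0.175% as lower in mutants. The members nearest to it were 2 Delta-like ligand genes, Dll3 (2.00-fold higher in mutant lenses, 95% interval 1.52-fold to 2.61-fold, adjusted p = 0.0512) and Dll1 (1.72-fold higher, interval 1.34-fold to 2.21-fold, adjusted p = 0.0691). By p, 2 of 3 Rbpj probe sets followed, at 1.55-fold and 1.37-fold. At an unadjusted p under 0.05 there were 5 member probe sets higher and 1 lower, which is 28.6% of the 21 beside 11.6% of all probe sets (6.11% higher and 5.46% lower). Mutant and wild type values did not overlap in 5 of the 21, 4 higher and 1 lower, or 23.8%, beside 17.8% of all probe sets (8.73% higher and 9.10% lower). Moreover 14 of the 21 differences were above 0, or 66.7% beside 47.0%. The median difference was 0.10 over the 21 and -0.02 over all probe sets. Probe sets of 1 gene share their transcript and are not independent of each other.

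**Figure D1:**
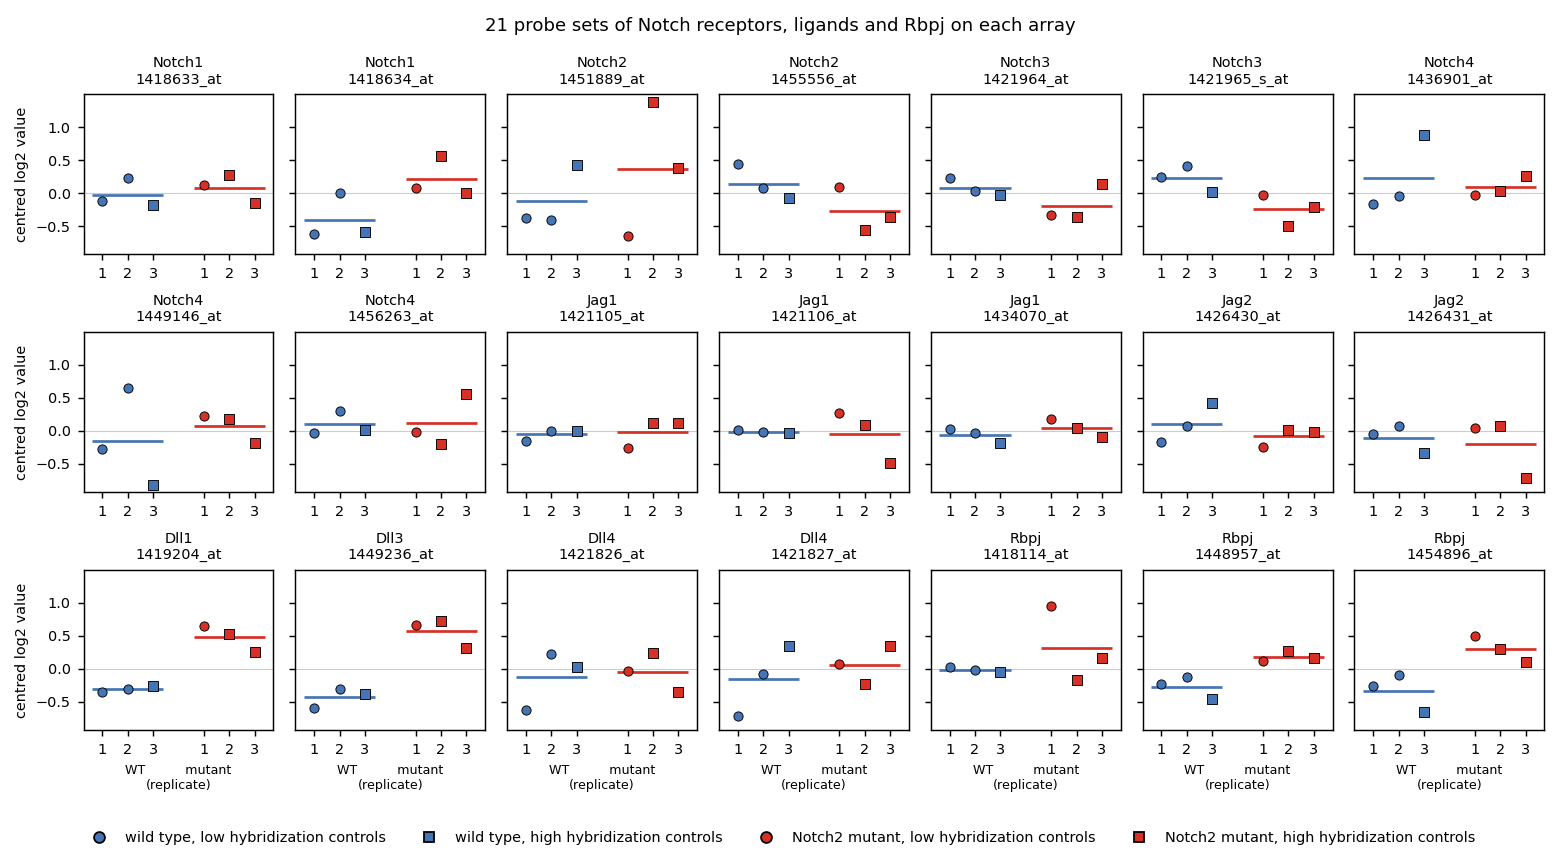
Centred log2 value (vertical axis) of each of the 21 probe sets on the 3 wild type (blue) and 3 Notch2 mutant (red) arrays; circles are arrays with low and squares arrays with high hybridization controls, and lines are group means. In the Dll1 and Dll3 panels the red points all lie above the blue ones, while Notch2 1451889_at runs from -0.65 to 1.39 within the mutants.

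Notch2, the targeted receptor, was read by 2 probe sets that differed in opposite directions, neither past the threshold. Probe set 1451889_at read -0.37, -0.41 and 0.43 on wild type arrays 1, 2 and 3, against -0.65, 1.39 and 0.37 on mutant arrays 1, 2 and 3. Mutant 1 was the lowest array and mutant 2 the highest, so the groups overlapped fully. The difference was 0.49 (SE 0.45, 95% interval -0.53 to 1.51, adjusted p = 0.752). Probe set 1455556_at gave 0.44, 0.08 and -0.08 in wild types against 0.10, -0.56 and -0.36 in mutants. Here 2 mutants were the lowest arrays and mutant 1 lay among the wild types. The difference was -0.42 (SE 0.21, interval -0.90 to 0.06, adjusted p = 0.514). The labels do not place these probe sets against the deleted exons, and neither value checks the genotype labels.

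The Notch2 probe sets had opposite signs on 6 of 6 arrays. Since centring puts as many arrays above 0 as below for most probe sets, signs of a pair are tied to each other. These opposite signs are the same split of the arrays that the next paragraph describes, not a separate observation. Of 30372 pairs of probe sets that share a gene symbol, over 9010 genes, 4.04% had no array of the same sign. The first minus the second differed between the genotypes by 0.91 (two-sided exact permutation test p = 0.40, where 0.10 is the smallest value possible with 3 against 3 arrays, adjusted p = 0.90 over the 14 pairs of probe sets that share a member gene). The spread of 1451889_at among the mutants was unusual: their standard deviation was 1.02, and 0.0977% of all probe sets varied as much or more in that group.

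Both Notch2 probe sets sorted the arrays by their hybridization controls, not by genotype. The 3 arrays with high controls had the 3 highest values of 1451889_at and the 3 lowest of 1455556_at. High minus low was 1.21 for the first and -0.54 for the second, and 0.0999% of all probe sets reached the size of the first. Separation of this kind was common, since 21.4% of all probe sets showed it beside the 17.8% that separated the genotypes. Among the members 3 of 21 did, the Notch2 pair and Notch4 1436901_at, or 14.3%. Within the low arrays mutant minus wild type was -0.26 for 1451889_at and -0.16 for 1455556_at. Within the high arrays it was 0.45 and -0.38, and each of these within-kind values sets 1 array of one genotype against 2 of the other. With the low and high arrays as a block, added after the data were seen, the differences became 0.10 (SE 0.29, adjusted p = 0.889) and -0.27 (SE 0.16, adjusted p = 0.399). Without mutant 2 the difference of 1451889_at was -0.02, and without mutant 1 it was 1.00. The labels give no reason for the control readings.

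**Figure D2:**
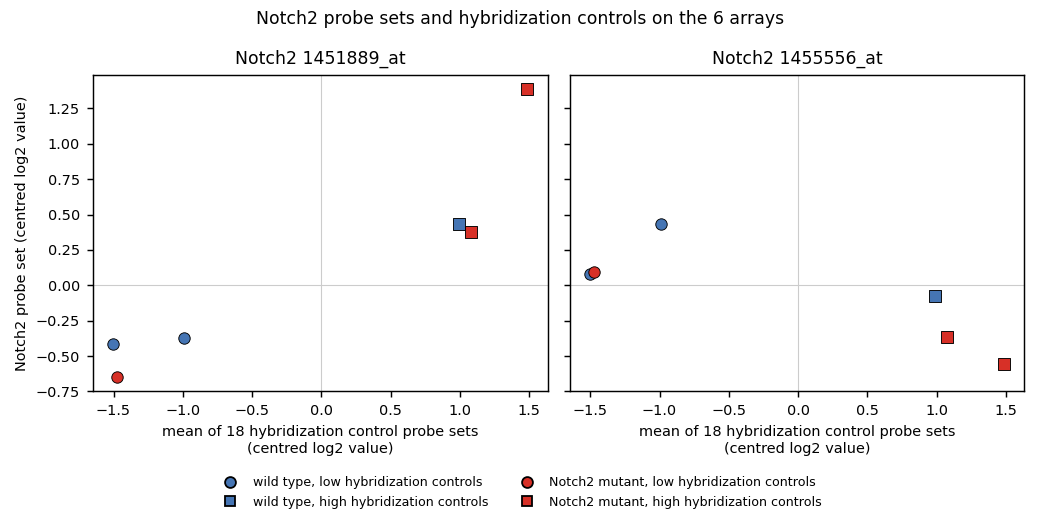
Centred log2 value of each Notch2 probe set (vertical axis) against the mean of the 18 hybridization control probe sets (horizontal axis, centred log2 value), 1 point per array; blue is wild type, red is Notch2 mutant, circles are low and squares high controls. Arrays with high controls lie high for 1451889_at and low for 1455556_at in both genotypes, with high minus low at 1.21 and -0.54.

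Notch1, a second receptor that binds the same ligands and is best known from neural progenitors and endothelium, had 2 of 2 differences above 0, of which 1 had an unadjusted p under 0.05 and none passed. Probe set 1418634_at gave -0.62, 0.00017 and -0.59 in wild types against 0.08, 0.56 and -0.00017 in mutants. The groups met at wild type 2 and mutant 3. The difference was 0.62 (SE 0.23, adjusted p = 0.321), at 0.39 within the low and 0.87 within the high arrays. Probe set 1418633_at gave -0.12, 0.23 and -0.18 against 0.12, 0.27 and -0.15, and the groups overlapped (0.10, SE 0.18, interval -0.31 to 0.51). Both Notch1 probe sets had the same sign on 6 of 6 arrays, as did 12.3% of all pairs of probe sets that share a gene symbol. On wild type 2 and mutant 3 the sign of 1418634_at rests on values of 0.00017 and -0.00017. The gap between the differences of the Notch1 probe sets had an exact permutation p of 0.10, the smallest possible (two-sided, adjusted p = 0.90).

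Notch3, the receptor of pericytes and vascular smooth muscle, was the only member whose probe sets were both lower in mutants apart from Jag2. Probe set 1421965_s_at gave 0.24, 0.41 and 0.02 in wild types against -0.02, -0.50 and -0.21 in mutants. The groups did not overlap, with a gap of 0.05, and the difference was -0.47 (SE 0.18, adjusted p = 0.353). It was -0.35 within the low and -0.38 within the high arrays. Probe set 1421964_at gave 0.24, 0.03 and -0.03 against -0.33, -0.37 and 0.14, with mutant 3 among the wild types (-0.26, SE 0.18, adjusted p = 0.658). The 10 pericyte and smooth muscle markers, of which none passed, had list means of -0.11, 0.27 and -0.13 among wild types, against 0.04, 0.0092 and 0.06 among mutants. That list was highest in wild type 2, as 1421965_s_at was, whereas 1421964_at was highest in wild type 1, and the list's part in the Notch3 values was not tested.

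Notch4, a receptor of endothelial cells, did not differ beyond its spread. Probe set 1449146_at gave -0.28, 0.65 and -0.82 in wild types against 0.22, 0.18 and -0.18 in mutants, and the wild types enclosed the mutants. Its standard deviation among wild types was 0.742, a size reached by 1.02% of all probe sets. The difference was 0.22 (SE 0.33, adjusted p = 0.859), -0.11 without wild type 3 and 0.62 without wild type 2. Probe set 1436901_at gave -0.16, -0.04 and 0.88 against -0.03, 0.03 and 0.26 (-0.14, SE 0.26), with wild type 3 highest where it was lowest by the other. This probe set differed by 0.07 within the low and -0.73 within the high arrays, and by -0.33 (SE 0.20) with these as a block, while 1449146_at differed by 0.04 and 0.82. Probe set 1456263_at gave -0.03, 0.31 and 0.02 against -0.02, -0.20 and 0.56 (0.02, SE 0.22). The 16 endothelial markers, none of which passed, had list means of -0.16, 0.43 and -0.41 among wild types, against -0.01, 0.0047 and 0.02 among mutants. Within wild type 1449146_at had the same order as that list, whereas 1436901_at and 1456263_at did not. Among mutants the list rose from mutant 1 to mutant 3, as 1436901_at did, while 1449146_at fell. The part of these markers in the Notch4 values was not tested.

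The Delta-like ligands Dll1 and Dll3 each separated the genotypes on a single probe set. Dll1 activates receptors on neighbouring cells, whereas Dll3 acts inside the cell that makes it and inhibits Notch there. Since both separated the genotypes, the 250 bases before their RefSeq starts are shown, with those of Rbpj, and of Jag1 as a ligand whose groups overlapped. The windows end at the start, so they hold no transcribed base. All windows are GRCm38.p6 from RefSeq and 10 of 10 members matched. Capitals mark the E-box CANNTG, the letters that proneural and other basic helix-loop-helix factors bind, which reads the same on both strands.
Dll3, chr7:28301786-28302035, minus strand: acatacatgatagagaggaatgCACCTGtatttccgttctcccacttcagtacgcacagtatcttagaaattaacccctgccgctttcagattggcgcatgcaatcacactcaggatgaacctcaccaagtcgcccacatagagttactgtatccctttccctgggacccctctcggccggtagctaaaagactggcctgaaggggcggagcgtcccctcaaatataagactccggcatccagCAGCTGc
Dll1, chr17:15376933-15377182, minus strand: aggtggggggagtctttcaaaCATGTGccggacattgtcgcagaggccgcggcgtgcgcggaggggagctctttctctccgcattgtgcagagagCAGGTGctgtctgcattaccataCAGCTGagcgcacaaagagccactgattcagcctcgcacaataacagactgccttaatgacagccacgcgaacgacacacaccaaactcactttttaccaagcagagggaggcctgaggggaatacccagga
Rbpj, chr5:53590096-53590345, plus strand: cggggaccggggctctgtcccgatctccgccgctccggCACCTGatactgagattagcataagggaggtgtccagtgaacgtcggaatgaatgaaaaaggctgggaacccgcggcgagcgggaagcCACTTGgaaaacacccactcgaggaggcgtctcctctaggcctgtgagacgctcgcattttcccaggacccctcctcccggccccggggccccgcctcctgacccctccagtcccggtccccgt
Jag1, chr2:137116521-137116770, minus strand: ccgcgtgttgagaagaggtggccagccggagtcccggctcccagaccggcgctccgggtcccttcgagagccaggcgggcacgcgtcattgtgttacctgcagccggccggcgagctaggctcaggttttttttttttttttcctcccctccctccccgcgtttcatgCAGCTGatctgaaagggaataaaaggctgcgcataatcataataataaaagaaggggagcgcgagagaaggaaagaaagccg
Dll3 held 2 E-boxes and Dll1 held 3, in each case with 1 of the form CAGCTG. Rbpj held 2 E-boxes, neither of that form, and Jag1 held 1, which was CAGCTG. Of 32851 such windows of all genes, 66.2% held CANNTG and 13.0% held CAGCTG. Of the 12 windows of the members, 6 held CANNTG and 3 held CAGCTG. The windows of Notch1, Notch2, Notch3, Jag2 and Dll4, not shown, held no E-box, and Notch3 1421965_s_at also separated the genotypes. The core letters bound by Rbpj, TGGGAA, were searched on both strands. They were found 2 times in the Rbpj window shown, in none of the other windows shown and in 21.6% of all windows. Dll1 and Rbpj each have a second start in the table, whose windows held 1 and 0 E-boxes. A match describes the letters of the window only.

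Dll3 read -0.60, -0.31 and -0.39 on wild type arrays 1, 2 and 3, against 0.67, 0.72 and 0.31 on mutant arrays 1, 2 and 3. Every mutant lay above every wild type, with a gap of 0.62 between the nearest arrays. The mean went from -0.43 ± 0.15 to 0.57 ± 0.22 (SD, n = 3), a difference of 1.00 (SE 0.17). It ranked 221 of 45037 by p, just behind the 211 that passed. The difference was 1.12 within the low arrays and 0.90 within the high ones. With these as a block, added after the data were seen, it passed at an adjusted p of 0.0387 in limma, along with 1.75% of all probe sets.

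Dll1 gave -0.35, -0.31 and -0.26 in wild types against 0.65, 0.53 and 0.26 in mutants. The wild types lay closer together than in 95.2% of all probe sets, and the gap to the lowest mutant was 0.52. The mean went from -0.30 ± 0.04 to 0.48 ± 0.20 (SD, n = 3), a difference of 0.78 (SE 0.16). It was 0.98 within the low and 0.65 within the high arrays. With these as a block, added after the data were seen, Dll1 passed at an adjusted p of 0.0471 in limma, along with 1.75% of all probe sets. With the mean of the hybridization controls as a covariate instead, it did not pass (adjusted p = 0.0539 in limma). In both genes mutant 3 was the lowest mutant.

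Dll4, the ligand of sprouting endothelium, did not separate the groups. Probe set 1421826_at gave -0.63, 0.22 and 0.03 in wild types against -0.03, 0.23 and -0.35 in mutants (0.08, SE 0.24, interval -0.47 to 0.63). Probe set 1421827_at gave -0.72, -0.07 and 0.34 against 0.07, -0.23 and 0.34 (0.21, SE 0.27, interval -0.40 to 0.82). Wild type 1 was the lowest array in both, and apart from it the genotypes were mixed. Within the low and high arrays 1421826_at differed by 0.18 and -0.09 and 1421827_at by 0.47 and -0.29.

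Markers of retinal neurons and progenitors moved with Dll1 and Dll3. Of 25 measured genes of this list 11 rose in limma and 0 fell, and the median difference over its 44 probe sets was 1.32. They included Neurog2 (2.27, SE 0.35) and Neurod4 (2.28, SE 0.34), proneural factors, Atoh7 (1.85, SE 0.23), which specifies ganglion cells, and Otx2 (2.31, SE 0.34), Lhx2 (1.19) and Six6 (1.36), homeobox factors of the eye. For Neurod4, 1 of 3 probe sets read 0.11. Per array the list averaged -0.75, -0.32 and -1.01 among wild types, against 0.57, 0.93 and 0.29 among mutants. The extraction protocol states that tissue around the lenses was dissected away. Mutant 3 had the lowest list mean of the mutants, as it did for Dll1 and Dll3, but among wild types the order differed. With that mean as a covariate the differences were 0.51 (SE 0.43) for Dll3 and 0.60 (SE 0.43) for Dll1, neither passing. The covariate itself separates the genotypes, which widens these errors.

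**Figure D3:**
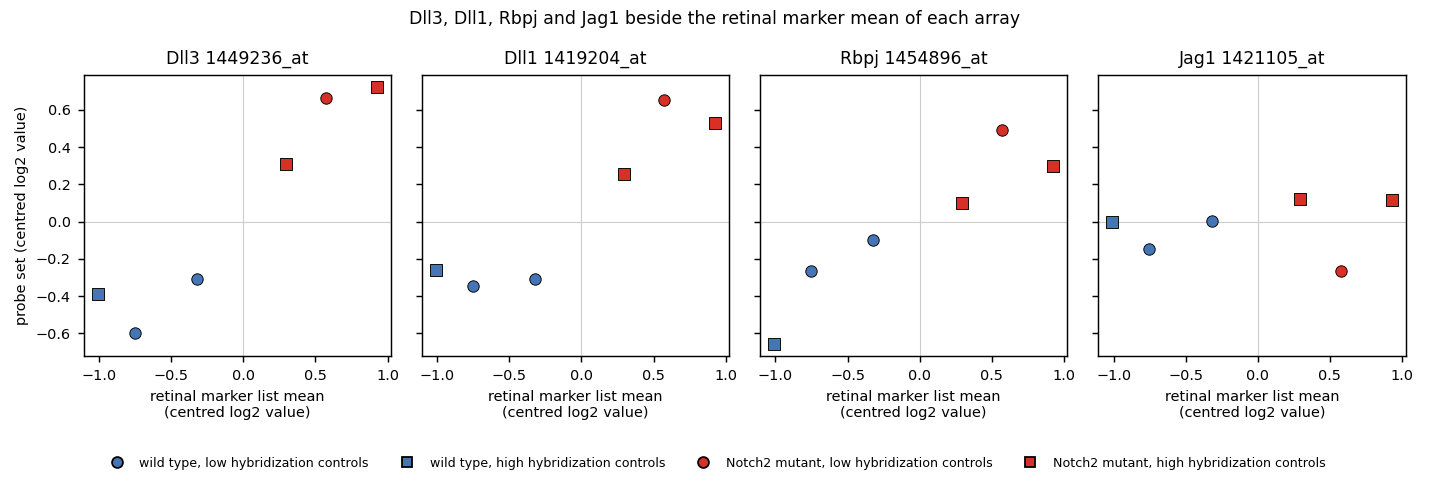
Centred log2 value of Dll3, Dll1, Rbpj 1454896_at and Jag1 1421105_at (vertical axis) against the mean of the retinal marker list (horizontal axis, centred log2 value), 1 point per array; blue is wild type, red is Notch2 mutant, circles are low and squares high hybridization controls. Mutants lie to the right of the wild types in every panel and above them for Dll3, Dll1 and Rbpj, but not for Jag1.

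The Jagged ligands had small differences. Jag1, the fibre cell ligand, was read by 3 probe sets. Probe set 1421105_at gave -0.15, 0.0042 and -0.0042 in wild types against -0.27, 0.12 and 0.12 in mutants (0.04, SE 0.17). Probe set 1421106_at gave 0.02, -0.02 and -0.03 against 0.27, 0.09 and -0.48 (-0.03, SE 0.20), and 1434070_at gave 0.03, -0.03 and -0.18 against 0.18, 0.04 and -0.09 (0.10, SE 0.15). The genotypes overlapped in each, and the widest of the 3 intervals ran from -0.49 to 0.43, or from 0.711 to 1.35 times the wild type value. A difference of any size within that interval remained compatible with the values of 1421106_at. By 1421106_at the wild types lay within 0.044 of each other, while the mutants spanned 0.749.

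Jag2, a ligand better known from epithelia such as skin and thymus, gave -0.17, 0.08 and 0.42 against -0.24, 0.01 and -0.01 by 1426430_at, and the groups overlapped (-0.19, SE 0.19, adjusted p = 0.770). By 1426431_at it gave -0.05, 0.07 and -0.33 against 0.05, 0.08 and -0.71, with mutant 3 lowest (-0.09, SE 0.23, interval -0.62 to 0.44).

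Rbpj, the DNA-binding partner of every Notch receptor, had 3 of 3 differences above 0, of which 2 had an unadjusted p under 0.05 and none passed. Probe set 1454896_at gave -0.27, -0.10 and -0.66 in wild types against 0.49, 0.30 and 0.10 in mutants. The groups did not overlap, with a gap of 0.19, and the difference was 0.64 (SE 0.19, adjusted p = 0.218). Probe set 1448957_at gave -0.24, -0.12 and -0.45 against 0.12, 0.26 and 0.17. It also separated the genotypes, by a gap of 0.24, with a difference of 0.46 (SE 0.15, adjusted p = 0.279). Both read wild type 3 as the lowest array, where the retinal list mean was lowest too. Among mutants that mean was lowest in mutant 3 and highest in mutant 2. There 1454896_at was also lowest in mutant 3 but highest in mutant 1, and 1448957_at was also highest in mutant 2 but lowest in mutant 1. Probe set 1418114_at gave 0.03, -0.03 and -0.04 against 0.95, -0.17 and 0.16 (0.33, SE 0.26, adjusted p = 0.705), and without mutant 1 its difference was 0.0072. Within the low and high arrays 1454896_at differed by 0.68 and 0.85 and 1448957_at by 0.30 and 0.67. With these as a block, added after the data were seen, 1454896_at passed in limma (0.76, SE 0.14, adjusted p = 0.0471), along with 1.75% of all probe sets. Probe set 1448957_at did not pass (0.49, adjusted p = 0.145). With the mean of the hybridization controls as a covariate instead, 1454896_at did not pass either (adjusted p = 0.0591 in limma). With the retinal mean as a covariate 1454896_at differed by -0.07 (SE 0.45), 1448957_at by 0.03 (SE 0.39) and 1418114_at by 0.69 (SE 0.69). That mean itself separates the genotypes, which widens these errors, so this fit cannot tell it and genotype apart.

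**Figure D4:**
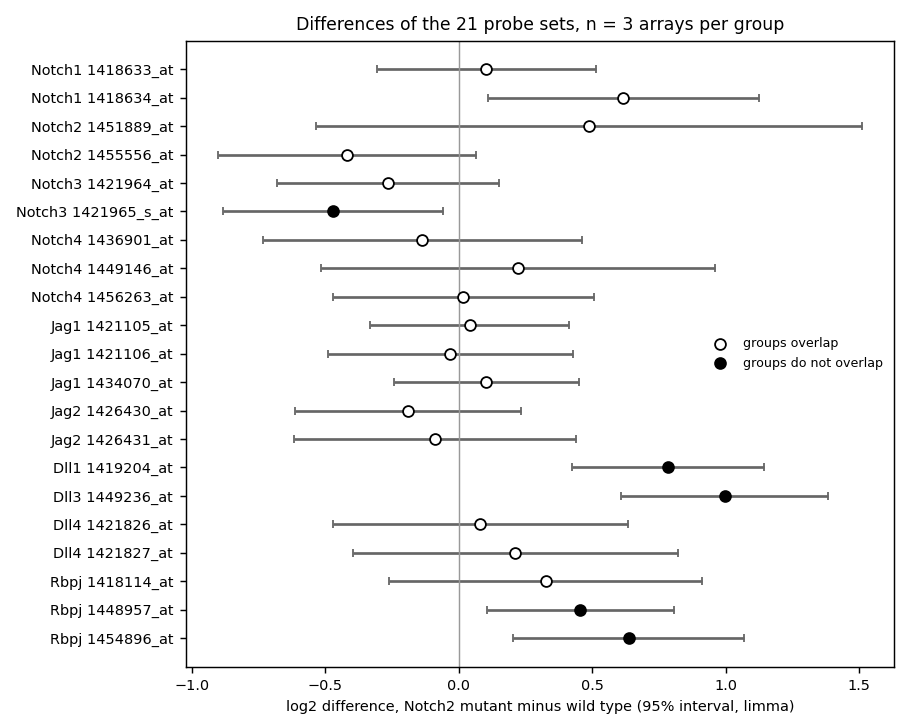
Log2 difference, Notch2 mutant minus wild type (horizontal axis), of each of the 21 probe sets, with limma's 95% interval, 3 arrays per group; filled points are probe sets whose groups do not overlap. The 5 filled points are Dll3 at 1.00, Dll1 at 0.78, Rbpj at 0.64 and 0.46, and Notch3 at -0.47, and the Jag1 points lie between -0.03 and 0.10.

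The rest of the pathway was taken from 8 lists of 73 measured genes with 162 probe sets, of which 0 passed as higher and 0 as lower. At an unadjusted p under 0.05 in limma, 22 of the 162 were higher and 7 lower, beside 6.11% and 5.46% of all probe sets, and the median difference was 0.01. Over the 20 probe sets of the 12 measured target genes 8 were higher and 0 lower by that measure, with a median of 0.17. Among them the smallest p values belonged to Id3, an inhibitor of differentiation (0.88, SE 0.16, adjusted p = 0.0587), and Sox9, a progenitor factor (0.87, SE 0.16, adjusted p = 0.0610, with other probe sets at 1.01 and 0.16). Hes1, the target most often used as a readout, differed by 0.79 (SE 0.15, adjusted p = 0.0622). Nrarp, a target that feeds back on the pathway, read 0.05 and -0.01 by its probe sets.

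In the nucleus, the 12 measured corepressor genes had a median difference of 0.17 over 24 probe sets, led by Tle1 (1.55, SE 0.31, adjusted p = 0.0684, with another probe set at 0.72) and Ctbp1 (0.52, SE 0.16, adjusted p = 0.240), which hold target genes silent. The 8 coactivator genes had a median of 0.15, led by Snw1 (0.42, SE 0.15, adjusted p = 0.305) and Crebbp (0.47, SE 0.19, adjusted p = 0.392). Other Snw1 probe sets both read 0.18, and other Crebbp probe sets lay between 0.19 and 0.76. Of 12 genes of receptor turnover, the ubiquitin ligase genes Dtx4 (1.05, SE 0.22, adjusted p = 0.0731) and Dtx1 (0.90, SE 0.22, adjusted p = 0.125) led, with other probe sets at 0.33 and 0.04.

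Of the lists for proteases, glycosylation, ligand endocytosis and atypical ligands, none had a median above 0. Over all probe sets the median was -0.02, with 47.0% above 0. The 8 measured protease genes that cut the receptor had a median of -0.13 with 4 of 18 probe sets above 0, and Aph1a (-0.45, SE 0.20, adjusted p = 0.440) and Psen2 (-0.32, SE 0.16, adjusted p = 0.504), parts of gamma-secretase, had the smallest p. Other Aph1a probe sets read -0.42 and 0.19, and another Psen2 probe set read -0.04. The 7 glycosylation genes had a median of -0.08, led by Pofut1 (-0.47, SE 0.19, adjusted p = 0.365) and Lfng (-0.61, SE 0.26, adjusted p = 0.411), which modify the receptor's EGF repeats. Other Pofut1 probe sets read -0.25 and -0.14, and another Lfng probe set read -0.08. The 7 genes of ligand endocytosis had a median of -0.10, led by Epn2 (-0.50, SE 0.16, adjusted p = 0.233) and Dnm2 (-0.42, SE 0.15, adjusted p = 0.317). Other Epn2 probe sets lay between -0.24 and 0.09, and other Dnm2 probe sets between -0.30 and 0.03. Of 8 measured atypical ligands and regulators, with a median of -0.07, Cntn1 (1.08, SE 0.20, adjusted p = 0.0581, with other probe sets at 1.08 and -0.0035) and Dner (0.76, SE 0.26, adjusted p = 0.283, with another probe set at 0.89) led, both membrane proteins of neurons.

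Of the other marker lists, 1 held a gene that rose. Slc1a3, of the 7 measured markers of retinal glia, rose (1.36, SE 0.22, adjusted p = 0.0428 in limma). Its other probe sets lay between 0.10 and 1.22 and did not pass. The mean of the retinal glia list was between -0.65 and 0.0026 among wild types and between 0.05 and 0.26 in mutants. None of the 14 macrophage markers passed, though their 20 probe sets had a median difference of 0.76 and 12 were higher at an unadjusted p under 0.05. For that list wild type 2 at 0.07 lay above mutant 1 at 0.03. None of the 9 surface ectoderm or 7 pigmented epithelium markers passed, with medians of 0.10 and 0.02. The part of these tissues in the values of Dll1, Dll3, Rbpj and Notch1 was not tested.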

How the data were processed

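Lens RNA of 3 wild type and 3 Notch2 mutant embryos was hybridized to oligonucleotide arrays. Per the submitters' processing notes the authors used RMA, which corrects background, normalizes by quantiles and summarizes probes; no version is stated. The deposited numbers were read as log2 values, as RMA writes them, since no source names the base. Over the 6 arrays the median of a probe set never lay farther from 0 than 5e-07, a centring that no source used here describes and that removes levels and detection calls.

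Of 45101 probe sets 64 controls were left out. Of the rest, 34945 had 1 gene symbol in the platform annotation, 932 several and 9160 none. Genotypes were compared on all 6 arrays by limma 3.58.1 under R 4.3.3, using lmFit and eBayes with no covariate, with Benjamini-Hochberg adjustment over 45037 probe sets and a threshold of 0.05, and it was checked on simulated arrays. The labels call the arrays biological replicates. A list gene passed where any of its probe sets did, and list means average each gene's probe sets first. Of each pathway list the 2 genes with the smallest p were named where none passed, and of marker lists up to 6 that passed; Hes1 and Nrarp were named after their values were seen. Promoter windows were RefSeq's for GRCm38.p6. The members and lists were chosen with earlier results of these data known. Alternatives covered normalization, variance, probe set filters, blocks, covariates and leaving out each array.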

Additional observations from a re-analysis of the deposited data

How the results depend on the processing

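The number of all probe sets past the threshold was 211, and 584 with quantile normalization repeated, 530 with the replicate block, 889 with array weights, 738 among probe sets more variable than the median, 790 with the low and high hybridization control arrays as a block, 610 with the control mean as a covariate, 0 with the retinal mean as a covariate (1602 at an unadjusted p under 0.05 in limma), and 7 to 155 with 1 array left out (8, 155 and 49 without wild type 1, 2 and 3; 12, 7 and 91 without mutant 1, 2 and 3). Among the 21 probe sets 0 passed (6 at an unadjusted p under 0.05), against 1 with quantile normalization repeated, 1 with the replicate block, 1 without _x_at and _s_at probe sets, 1 among the more variable ones and 1 with the control mean (Dll3 each time), 2 with array weights (Dll3 and Dll1) and 3 with the control block; the control alternatives were chosen after seeing the data. The filter for more variable probe sets used the spread over all 6 arrays, which includes the genotype difference itself. Its fit gave every member kept the same SE of 0.296, so Dll3 passed there by the size of its difference. With 1 array left out 0 passed each time, with adjusted p from 0.0638 to 0.233 for Dll3 and from 0.0884 to 0.308 for Dll1. The replicate block gave Dll3 an adjusted p of 0.0447 in limma and changed no other member's call. The labels do not say that a number pairs embryos, so the numbers were not taken as pairs. Same-numbered arrays had deviations correlating at 0.33, -0.14 and 0.26, which with no reference value cannot decide whether they are pairs.

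Some members changed sign. With the retinal covariate, Notch1 became -0.72 and -0.57, Notch3 1421964_at 0.16, Notch4 0.88 (1436901_at) and -1.59 (1449146_at), Jag1 -0.014 (1421105_at) and -0.13 (1434070_at), Jag2 1426430_at 0.048, Dll4 1421826_at -0.77 and Rbpj 1454896_at -0.069. The retinal mean itself separates the genotypes, so these fits cannot tell it and genotype apart, and their errors widen. The SE went from 0.18 to 0.39 for Notch1 1418633_at and from 0.33 to 0.56 for Notch4 1449146_at, and none of these values passed. With the control block and the control mean, Jag1 1421105_at became -0.035 and -0.036, Jag1 1421106_at 0.050 and 0.045, and Jag2 1426431_at 0.027 and 0.014. With array weights Notch4 1436901_at became 0.14. Leaving out 1 array gave -0.020 to 1.00 for Notch2 1451889_at, -0.33 to 0.19, -0.11 to 0.62 and -0.21 to 0.17 for Notch4 1436901_at, 1449146_at and 1456263_at, -0.026 to 0.17 and -0.19 to 0.19 for Jag1 1421105_at and 1421106_at, -0.23 to 0.17 for Jag2 1426431_at, and -0.17 to 0.25 and -0.072 to 0.46 for Dll4 1421826_at and 1421827_at. The cause was not tested. Taking 1 probe set per gene could not change the counts of the pathway lists, since 0 of their 162 probe sets passed in the first place.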
